A study of Mus musculus with 12 samples.

Results

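Bile acid synthesis and its feedback control were followed through 10 genes in the livers of 12 mice. The genes were taken by symbol from the table of reads per gene, and all 10 were found among its 25611 genes: Cyp7a1, Cyp8b1, Cyp27a1, Cyp7b1, Hsd3b7, Akr1d1, Slc27a5, Baat, Nr1h4 and Nr0b2. The mice were male C57BL6J animals aged 8 to 10 weeks, with 4 in each of 3 groups. Sham mice had the abdomen opened and closed with the cecum left intact, CLP mice had cecal ligation and puncture, which gives polymicrobial sepsis, and CLP+DCA mice had the same surgery followed by an intraperitoneal injection of dichloroacetate (DCA), an inhibitor of pyruvate dehydrogenase kinase, at 25 mg/kg. All mice received subcutaneous saline, and RNA was taken from the whole liver at 30 hr post-surgery, 6 hr after the DCA injection. What the sham and CLP mice were injected with at that time is not given in the sources used here. Each replicate is a mouse, numbered as in its label.

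Bile acids are made from cholesterol in hepatocytes. In the classic pathway the first and rate-limiting step is the 7α-hydroxylation of cholesterol by Cyp7a1, and Cyp8b1 adds the 12α-hydroxyl group of cholic acid. The alternative pathway starts with the side-chain hydroxylase Cyp27a1 and continues with the oxysterol 7α-hydroxylase Cyp7b1. Both pathways then use Hsd3b7 and Akr1d1 to reshape the steroid ring. Slc27a5 activates bile acids to coenzyme A esters, and Baat joins such esters to taurine or glycine. Bile acids bind the nuclear receptor FXR, encoded by Nr1h4, which induces Nr0b2. The product of Nr0b2, SHP, lacks a DNA-binding domain and represses Cyp7a1 and Cyp8b1 by way of other nuclear receptors, among them LRH-1 and HNF4α.

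Start-site regions were at hand in RefSeq (GRCm38.p6) for 6 of the 10 genes: Cyp8b1, Akr1d1, Nr0b2, Cyp27a1, Hsd3b7 and Nr1h4. Cyp7a1, Cyp7b1, Slc27a5 and Baat had none and were not searched. The Nr1h4 region, on the minus strand at chr10:89506609-89506908, lay inside the span of the gene, chr10:89454234-89533622. The regions of Cyp8b1, Akr1d1 and Nr0b2 are printed because Cyp8b1 and Akr1d1 had some of the widest ranges between mice and Nr0b2 encodes the repressor. Each runs from 250 bases before the start site to 50 after it, 5′ to 3′ on the gene's strand. Capitals mark the letters CAAAGTCCA (an HNF4 element), TCAAGG (the core of an LRH-1 site, in reverse complement where it lies on the opposite strand) and TATAAA (an element of core promoters). Cyp8b1 is on the minus strand at chr9:121916256-121916555, Akr1d1 on the plus strand at chr6:37529923-37530222 and Nr0b2 on the plus strand at chr4:133553126-133553425.
Cyp8b1: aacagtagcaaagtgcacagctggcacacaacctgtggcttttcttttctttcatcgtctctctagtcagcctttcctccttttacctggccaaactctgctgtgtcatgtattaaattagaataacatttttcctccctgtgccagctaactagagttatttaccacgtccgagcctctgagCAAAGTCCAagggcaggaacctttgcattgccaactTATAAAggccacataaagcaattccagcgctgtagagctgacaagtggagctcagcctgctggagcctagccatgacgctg
Akr1d1: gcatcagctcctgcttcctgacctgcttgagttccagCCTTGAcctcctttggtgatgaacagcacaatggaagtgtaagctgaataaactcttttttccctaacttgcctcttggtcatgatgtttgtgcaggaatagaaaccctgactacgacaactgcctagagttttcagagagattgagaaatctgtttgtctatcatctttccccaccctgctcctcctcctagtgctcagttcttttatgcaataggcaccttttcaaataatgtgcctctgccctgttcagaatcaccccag
Nr0b2: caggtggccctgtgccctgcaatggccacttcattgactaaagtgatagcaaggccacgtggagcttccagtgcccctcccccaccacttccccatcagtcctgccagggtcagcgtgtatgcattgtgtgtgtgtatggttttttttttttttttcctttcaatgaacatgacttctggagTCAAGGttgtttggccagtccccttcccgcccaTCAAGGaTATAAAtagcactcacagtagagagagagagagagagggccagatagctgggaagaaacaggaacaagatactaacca

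In Cyp8b1 the HNF4 letters lay at -67 to -59 and the TATA box at -31 to -26 from the start site. Nr0b2 held the LRH-1 core at -68 to -63 and again at -35 to -30, with a TATA box at -28 to -23, and Akr1d1 held the core on its minus strand at -213 to -208. None of these matches overlapped another. Of 32851 regions of this length, searched on both strands, 0.475% held CAAAGTCCA, 14.4% TCAAGG and 13.6% TATAAA. The inverted repeat bound by FXR, with 1 free base between its arms (0.0396% of regions), the D-box TTATGTAA (0.938%) or TTACGTAA (0.119%) and the full glucocorticoid palindrome (0.0578%) had no match in the 6 regions. Cyp7a1 was not among these. A match is a run of letters and was not tested for binding.

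The 12 libraries held 24436513 to 44266819 counted reads, and 13190 genes passed the filter on low counts, all 10 members among them. Values are given as CPM, the read count of a gene scaled to a common library size after TMM normalisation. CLP 2, CLP 4 and CLP+DCA 3 stood apart from the other septic mice over the genes that are not members: on the first principal component of log2 CPM, with 59.1% of the variance, sham mice lay between -40.6 and -32.9, CLP 1 to 4 at 10.6, 72.2, 8.76 and 45.9, and CLP+DCA 1 to 4 at -21.6, -16.3, 82.3 and -28.8. In the same order of mice, 28 acute phase genes took 22.9%, 33.8%, 19.5% and 31.2% of the reads in CLP and 15.4%, 18.7%, 33.4% and 13.96% in CLP+DCA, against 10.3% to 11.8% in sham. The liver label held in every mouse, with all 10 hepatocyte markers above 1 CPM. Their summed share of reads was 7.86% to 9.57% in sham, 3.25% to 5.73% in CLP and 3.10% to 7.09% in CLP+DCA. The part of these shifts in the results that follow was not tested. In whole liver, fewer cells of a type and less RNA per cell cannot be told apart.

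Per kilobase of exon, the sham livers ordered the 10 genes in steps. Slc27a5 was highest at 388 to 415 CPM per kb, and its range did not overlap that of any other member. Cyp27a1 (173 to 228) and Hsd3b7 (142 to 185) came next and overlapped each other. Hsd3b7 in turn overlapped Cyp7b1 (82.2 to 174) and Cyp8b1 (76.2 to 154), within whose ranges Baat lay at 103 to 112 CPM per kb. Akr1d1 (48.3 to 57.3), Nr1h4 (48.3 to 56.5), Nr0b2 (15.8 to 60.8) and Cyp7a1 (17.5 to 45.6) formed the lowest group, in which every gene overlapped Nr0b2. The rate-limiting enzyme thus had the lowest mean level per length of the 10 in sham, 36.0 CPM per kb, next to 36.6 for Nr0b2.

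Cyp7a1 (mm10, chr4:6265612-6275631) was lower in every CLP mouse than in any sham mouse. The sham mice had 159, 190, 73.1 and 179 CPM, the CLP mice 40.9, 0, 21.4 and 0.404, and the CLP+DCA mice 178, 61.2, 1.27 and 116. CLP 2 had 0 of 24436513 reads on the gene, which allows up to 0.144 CPM (3 reads, counting error only), while CLP 4 had 9 reads and CLP+DCA 3 had 47. Of the 4 CLP+DCA mice, 3 lay at 40.7% to 118% of the sham mean, and the other at 0.845%. The log2 fold change in CLP versus sham was -3.24 with an SE of 1.44 and a 95% confidence interval of -6.39 to -0.10, and the adjusted p of the edgeR quasi-likelihood test was 0.165. In CLP+DCA versus CLP the log2 fold change was 2.49 (interval -0.56 to 5.54, adjusted p = 0.578) and in CLP+DCA versus sham -0.75 (-3.65 to 2.14, adjusted p = 0.804). The CLP+DCA mice overlapped the CLP mice by CLP+DCA 3 alone and the sham mice by CLP+DCA 1 and 4.

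Cyp8b1 (chr9:121914356-121916305), the 12α-hydroxylase, did not follow Cyp7a1 in all mice. Sham mice had 299, 261, 149 and 174 CPM, CLP mice 274, 36.0, 153 and 37.5, and CLP+DCA mice 194, 99.3, 3.82 and 229. CLP 1 and CLP 3 were thus inside the sham range for Cyp8b1, whereas their Cyp7a1 was at 27.2% and 14.2% of the sham mean. CLP 2 and CLP 4 kept 16.3% and 17.0% of the sham mean of Cyp8b1, and CLP+DCA 3 kept 1.73%. The log2 fold changes were -0.82 (SE 0.90, adjusted p = 0.556) in CLP versus sham, -0.75 (SE 0.90, adjusted p = 0.714) in CLP+DCA versus sham and 0.07 (SE 0.90, adjusted p = 0.987) in CLP+DCA versus CLP, none larger than its error.

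**Figure D1:**
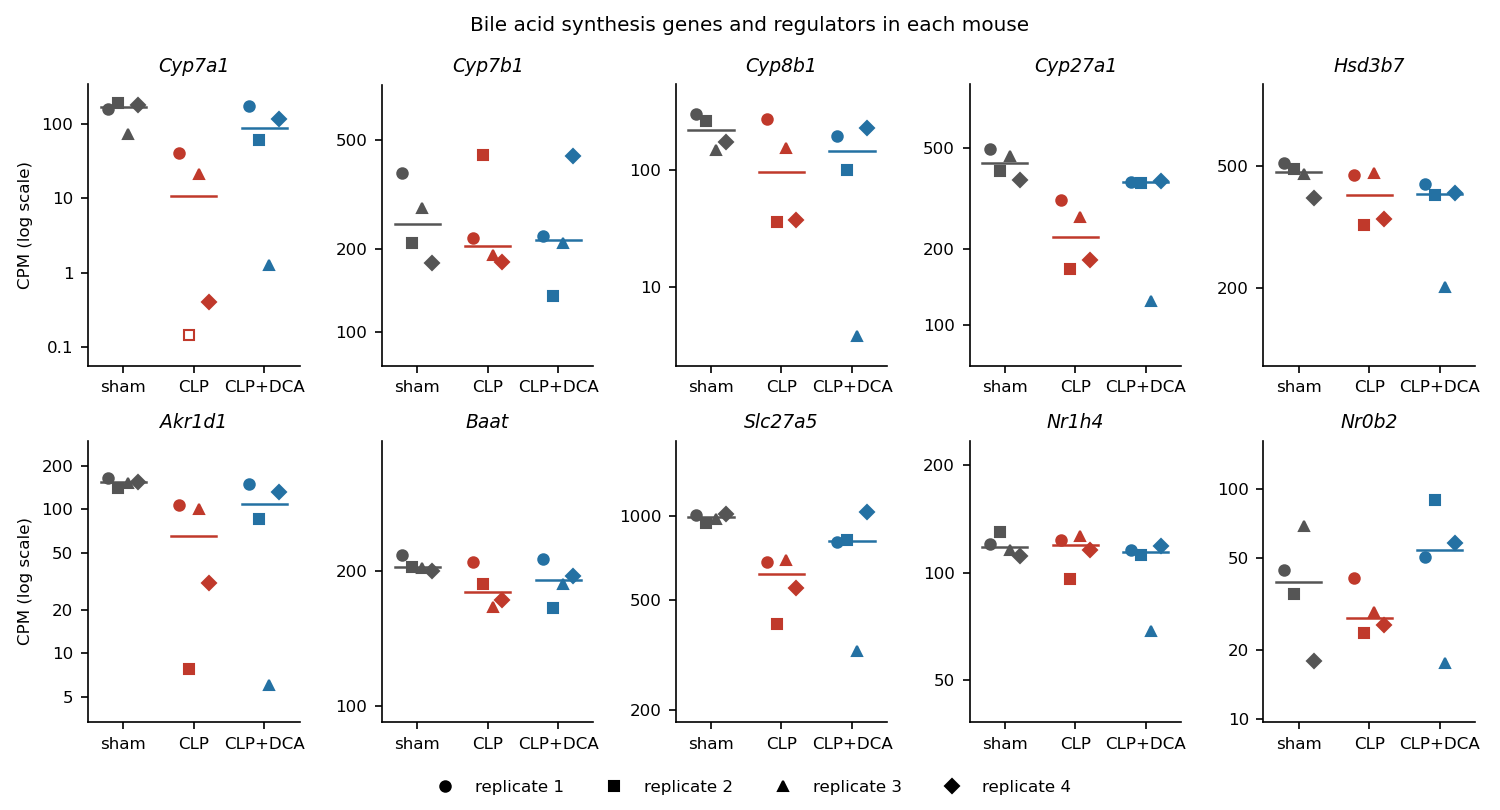
CPM of the 10 genes (y axes, log scale, a different range in each panel) in each of the 4 mice of the sham, CLP and CLP+DCA groups (x axes), with symbols for the replicate number, a line at the group median, and an open symbol at 3 reads for the CLP mouse with 0 reads of Cyp7a1. CLP 2, CLP 4 and CLP+DCA 3 (red square, red diamond and blue triangle) are low for Cyp7a1, Cyp8b1 and Akr1d1, while Baat stays between 165 and 218 CPM in all 12 mice.

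In the alternative pathway the entry enzyme had lower values in the septic mice and the second enzyme did not. Cyp27a1 (chr1:74713535-74737897) had 496, 408, 464 and 375 CPM in sham, 312, 167, 267 and 181 in CLP, and 369, 366, 125 and 373 in CLP+DCA. No septic mouse of either group reached the lowest sham mouse, though CLP+DCA 1, 2 and 4 came within 10 CPM of it. The log2 fold change was -0.91 in CLP (SE 0.32, adjusted p = 0.0981) and -0.50 in CLP+DCA (SE 0.32, adjusted p = 0.498), both against sham. Cyp7b1 (chr3:18071950-18243338) had 377, 211, 282 and 178 CPM in sham, 219, 442, 191 and 179 in CLP and 222, 135, 210 and 438 in CLP+DCA. Its highest value of all 12 mice was in CLP 2, the mouse without a read of Cyp7a1. The groups overlapped throughout, and the interval of its log2 fold change in CLP versus sham ran from -0.88 to 0.83.

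The 2 ring-modifying enzymes differed in range. Akr1d1 (chr6:37530173-37568815), the 5β-reductase, was even in sham at 166, 140, 152 and 155 CPM, spread to 108, 7.75, 99.7 and 30.6 CPM in CLP, and had 150, 85.5, 6.01 and 132 CPM in CLP+DCA. All CLP mice were below all sham mice, but the spread within CLP left a log2 fold change of -1.31 with an SE of 0.83 (adjusted p = 0.299). Hsd3b7 (chr7:127800609-127803802), which oxidises the 3β-hydroxyl group, had 511, 489, 469 and 393 CPM in sham, 468, 323, 475 and 337 in CLP, and 438, 401, 202 and 409 in CLP+DCA. Its ranges overlapped in each comparison, and the log2 fold change in CLP versus sham was -0.22 (SE 0.23, adjusted p = 0.535).

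The 2 conjugation genes also came apart. Slc27a5 (chr7:12988346-12998192), the bile acid coenzyme A ligase, had 1006, 945, 978 and 1013 CPM in sham, 682, 407, 696 and 552 in CLP, and 805, 818, 327 and 1034 in CLP+DCA. Every CLP mouse was below every sham mouse, and in CLP+DCA the group ran from the lowest to the highest value of all 12 mice. The log2 fold change in CLP versus sham was -0.75 (SE 0.29, adjusted p = 0.120). Baat (chr4:49489418-49506558), which transfers the amino acid, had 218, 204, 204 and 200 CPM in sham, 210, 187, 166 and 172 in CLP, and 213, 165, 187 and 195 in CLP+DCA. It varied least of the 10 among the septic mice, and the interval of its log2 fold change in CLP versus sham was -0.40 to 0.07.

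Of the regulators, the receptor gene was steady in most mice and its target was not. Nr1h4 (chr10:89454234-89533622) had 121, 130, 116 and 111 CPM in sham, 124, 96.2, 127 and 116 in CLP, and 116, 112, 68.9 and 119 in CLP+DCA, so that CLP 2 and CLP+DCA 3 were the lowest. The interval of its log2 fold change in CLP versus sham was -0.40 to 0.31. Nr0b2 (chr4:133553376-133556686) had 44.3, 34.9, 68.8 and 17.9 CPM in sham, 41.0, 23.7, 29.2 and 25.7 in CLP, and 50.6, 89.8, 17.5 and 58.3 in CLP+DCA. Sham mice alone spanned 3.85-fold, the widest sham range of the 10 genes. CLP+DCA 1, 2 and 4 were above all CLP mice and CLP+DCA 3 was below them, and the log2 fold change in CLP+DCA versus CLP was 0.85 (SE 0.46, adjusted p = 0.563). CLP 2, CLP 4 and CLP+DCA 3, the mice with least Cyp7a1, had 17.5 to 25.7 CPM of Nr0b2, at the low end of the 12. The part of Nr0b2 in the values of Cyp7a1 was not tested.

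Counted together, the edgeR fit of 12 mice at an FDR of 0.05 called 0 of 10 members in each comparison. In CLP versus sham all 10 estimates were below 0, with a median log2 fold change of -0.61 against 0.02 over all genes tested. The fit called 2.78% of all genes there. An unadjusted p under 0.05 was met by 3 of 10 members (Cyp27a1, Slc27a5 and Cyp7a1) and by 28.6% of all genes, so the members' share was near the background. A group of 4 members (Cyp7a1, Cyp27a1, Akr1d1 and Slc27a5) had every CLP mouse below every sham mouse, as did 14.2% of all genes.

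Whether Cyp27a1 and Slc27a5 were called in CLP versus sham depended on the tool and on the mice in the fit. DESeq2 on the 8 mice compared and edgeR on the same 8 mice each called both, DESeq2 on all 12 mice called Cyp27a1, and the limma-voom fit with sample weights called both and Cyp7a1 as well. In that order these fits called 23.3%, 18.3%, 13% and 26.2% of all genes they tested, so that 1 to 3 of 10 members was near each background. Without CLP+DCA 3, a mouse outside the comparison that shares its estimate of spread, the 12-mouse design called both, with adjusted p-values of 0.00825 for Cyp27a1 and 0.0101 for Slc27a5, while the whole table went from 367 to 3157 calls, or 23.8% of the genes tested. Over all settings run, the adjusted p ranged from 0.000286 to 0.237 for Cyp27a1 and from 0.000153 to 0.283 for Slc27a5, and that of Cyp7a1 from 0.0355 to 0.274.

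Against the septic mice without DCA, the CLP+DCA mice had 7 of 10 estimates above 0, with a median log2 fold change of 0.21. No member reached an unadjusted p under 0.05, as 10% of all genes did, and the FDR called 0.00758% of them. In no member were the 2 groups apart, against 2.05% of all genes with every CLP+DCA mouse lower and 2.32% with every one higher. In CLP+DCA versus sham, 9 of 10 estimates were below 0, with a median of -0.38. Again no member had an unadjusted p under 0.05, as 13% of genes did, 0.0379% of genes passed the FDR, and Cyp27a1 alone of the 10 had every CLP+DCA mouse below sham, against 4.97% of genes. DESeq2 called 0 members in both comparisons too, with 0.604% of all genes called in CLP+DCA versus CLP by the fit of the 8 mice compared and 0.815% by that of all 12, and 1.2% and 1.83% in CLP+DCA versus sham. These comparisons share mice with the first and are not independent of it.

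**Figure D2:**
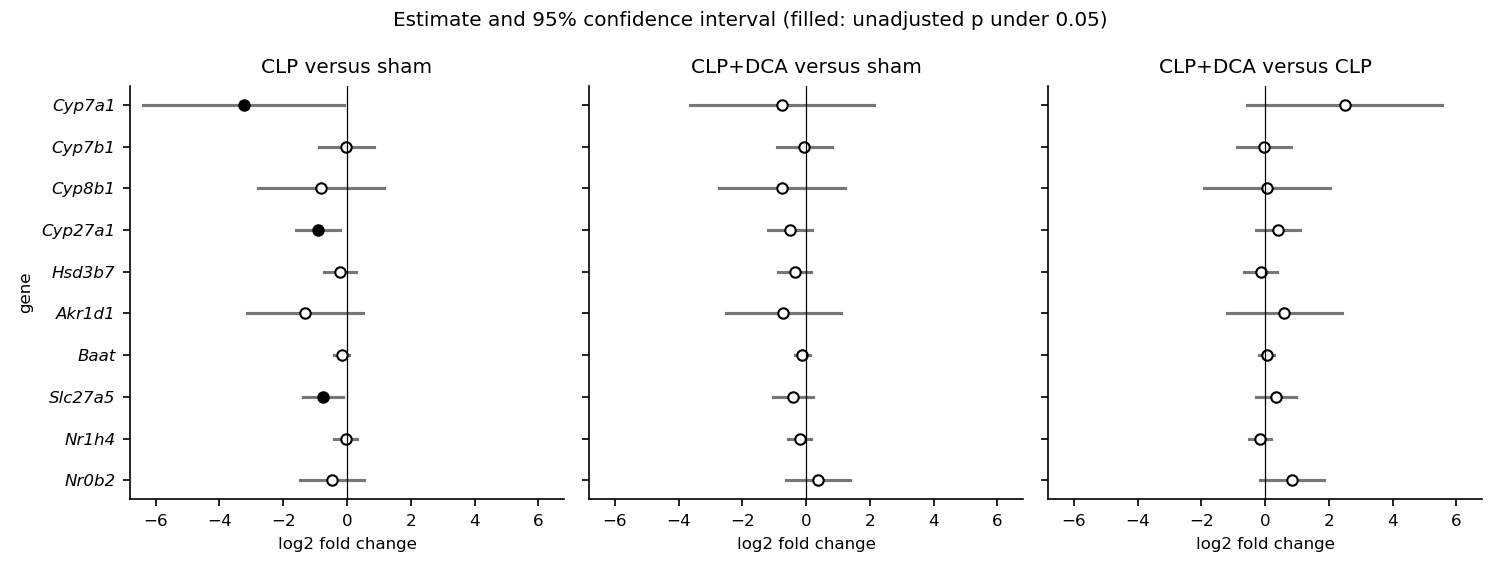
Log2 fold change (x axes) of the 10 genes (y axis) in the 3 comparisons between groups, one to a panel, from the edgeR fit of 12 mice, with 95% confidence intervals as bars and filled points where the unadjusted p was under 0.05. All 10 points lie left of 0 in CLP versus sham, and the intervals of Cyp7a1, Cyp8b1 and Akr1d1 are the longest in every panel.

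Within a mouse the losses were graded by gene. In CLP+DCA 3, as percent of the sham mean, Cyp7a1 stood at 0.845%, Cyp8b1 at 1.73% and Akr1d1 at 3.93%, then Cyp27a1 at 28.6%, Slc27a5 at 33.1%, Nr0b2 at 42.2%, Hsd3b7 at 43.3% and Nr1h4 at 57.7%, and Cyp7b1 and Baat at 80.3% and 90.6%. CLP 2 held Cyp7a1 at 0%, Akr1d1 at 5.06%, Cyp8b1 at 16.3% and Cyp27a1 at 38.3%, with Baat at 90.8% and Cyp7b1 at 169%. The lowest gene of CLP 4 was again Cyp7a1, at 0.268%, and Baat was at 83.4%. The same 3 mice were the lowest 3 of the 8 septic mice for 7 of 10 members, the exceptions being Cyp7b1, Baat and Nr1h4. Of all genes tested, 15.8% had these mice lowest, and 15.8% had them highest.

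**Figure D3:**
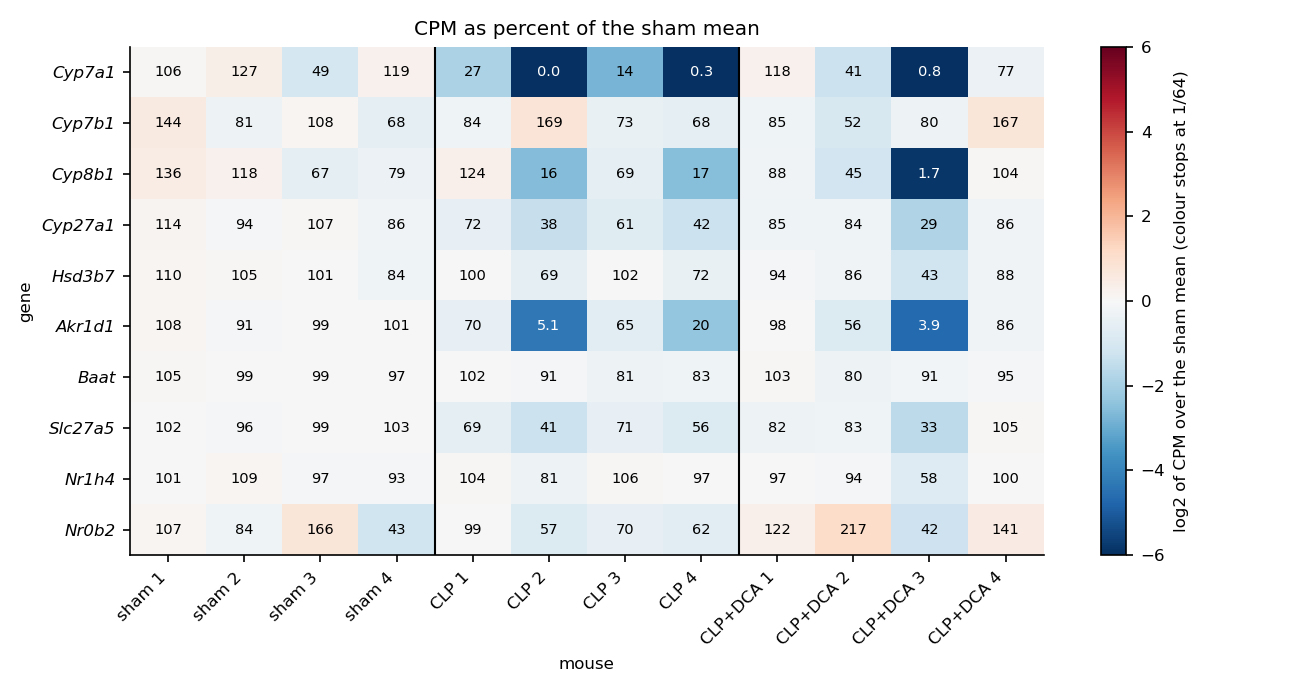
CPM of each gene (rows) in each mouse (columns) as percent of the sham mean, printed in the cells, with colour for its log2 (blue below the sham mean, red above, the scale ending at 1/64). The 3 darkest columns of the Cyp7a1, Cyp8b1 and Akr1d1 rows are CLP 2, CLP 4 and CLP+DCA 3, and the Baat row stays pale from end to end.

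The deviations of mice from their group means were alike for most members, over 12 mice that share the libraries standing apart above. The set of Cyp7a1, Cyp8b1, Cyp27a1, Hsd3b7, Akr1d1, Slc27a5 and Nr1h4 was picked after the values were seen. Its 21 pairs had Pearson r of 0.82 to 0.98 and Spearman rho of 0.77 to 0.97. Without the 2 mice farthest from the median of the first gene of a pair, r was 0.57 to 0.92. These 2 mice differed between pairs, and leaving out 2 could not remove all the libraries standing apart. Whether the likeness rests on those libraries was therefore not tested. Pairs with Cyp7b1 or Baat had r of -0.24 to 0.50, or -0.24 to 0.61 without 2 mice chosen in this way, which overlaps the lowest of the 21 pairs. Nr0b2 had r of 0.50 to 0.81 with the other 7, or 0.11 to 0.64 without 2 mice chosen in this way. Of 9084 genes with a mean of at least 5 CPM, those most like Cyp7a1 included Trafd1 (r = 0.99) and Ugdh (0.98), and those most like Cyp8b1 were Ctsf, Acsm5 and Acsm1, each at 0.98. Nr0b2 was most like Dnajc19, Clns1a and Tmem205, each at 0.94. These r are descriptions of the 12 mice.

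Ratios of reads between 2 genes of a mouse do not depend on its library size. In sham there were 1.88, 1.37, 2.03 and 0.973 reads of Cyp8b1 for each read of Cyp7a1, and in CLP+DCA 1.09, 1.62, 3.00 and 1.96. In CLP the ratio was 6.70 in CLP 1, 7.16 in CLP 3 and 92.9 in CLP 4, and CLP 2 had 752 reads of Cyp8b1 and 0 of Cyp7a1. All 4 CLP mice were thus above both other groups, also CLP+DCA 3, in which both genes were nearly lost and the ratio stayed at 3.00. On the log2 scale with 0.5 added to each count, CLP exceeded sham by 5.06 and CLP+DCA was lower than CLP by a difference of -4.81, each with p = 0.0286 in a two-sided exact permutation test, the smallest that 4 against 4 mice allow, and with an adjusted p of 0.0857 over the 12 ratio tests. The value of CLP 2 depends on the added 0.5, and without that mouse the differences were 3.43 and -3.17. CLP+DCA and sham differed by 0.25 (exact permutation p = 0.543).

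A further 2 ratios separated CLP from sham at the same exact p of 0.0286 and the same adjusted p of 0.0857. The log2 ratio of Cyp7a1 to Cyp7b1, the 7α-hydroxylases of the classic and the alternative pathway, differed by -6.28, or by -3.93 without CLP 2. The ratio of Slc27a5 to Baat was 4.62, 4.62, 4.81 and 5.06 in sham and 3.25, 2.17, 4.18 and 3.21 in CLP, a log2 difference of -0.61. In CLP+DCA it was 3.77, 4.94, 1.75 and 5.30 and overlapped both groups. The ratio of Nr0b2 to Nr1h4 was 0.366, 0.268, 0.595 and 0.161 in sham, 0.331, 0.247, 0.230 and 0.221 in CLP and 0.436, 0.801, 0.254 and 0.489 in CLP+DCA. Its log2 difference in CLP+DCA versus CLP was 0.85 (exact permutation p = 0.0571, adjusted p = 0.137). None of the 12 ratio tests passed 0.05 after adjustment. Each ratio that separated CLP from sham holds Cyp7a1 or Slc27a5, and either gene alone had every CLP mouse below every sham mouse. So did 14.2% of all genes tested, and how often other gene pairs separate was not counted.

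**Figure D4:**
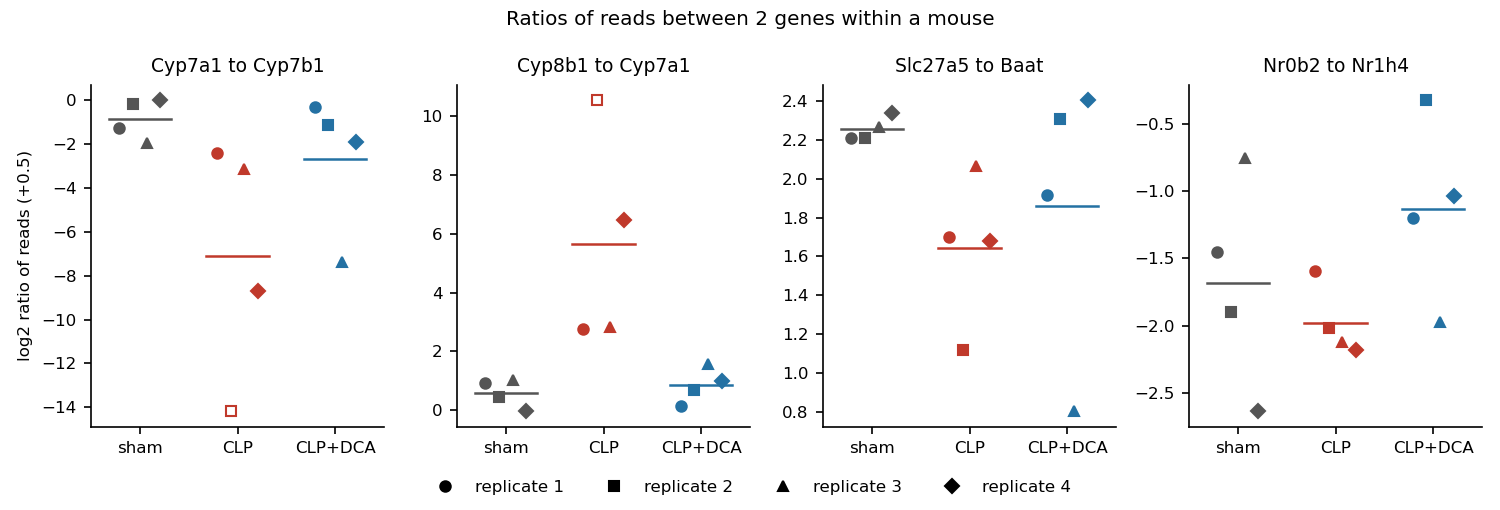
Log2 ratio of the reads of 2 genes in the same mouse, with 0.5 added to each count (y axes, a different range in each panel), for the sham, CLP and CLP+DCA mice (x axes), with symbols for the replicate number and a line at the group mean. In the Cyp8b1 to Cyp7a1 panel the 4 CLP mice lie above the other 8, and the open symbol marks CLP 2, whose value rests on 0 reads of Cyp7a1.

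The other genes of the pathway were read from lists. Of 12 further enzymes of bile acid synthesis, 11 were tested and 0 passed the FDR by edgeR in any comparison. In CLP versus sham 4 had an unadjusted p under 0.05, and the median log2 fold change was -0.41. Of all genes, 28.6% had such an unadjusted p there and 2.78% passed the FDR. DESeq2 on the 8 mice compared called 5 of them in CLP versus sham and DESeq2 on all 12 mice called 2, Acox2 and Scp2, beside 23.3% and 13% of all genes. The smallest p-values belonged to Acox2, the peroxisomal oxidase that shortens the side chain, at 146 to 159 CPM in sham and 173 to 357 in CLP (log2 fold change 0.76, adjusted p = 0.0909), and to Scp2, a peroxisomal thiolase and sterol carrier, at 2575 to 2940 CPM in sham and 1752 to 2115 in CLP (-0.49, adjusted p = 0.111). Acox2 was higher and Scp2 lower in all 4 CLP mice than in any sham mouse.

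Of 18 further regulators, 15 were tested, 0 passed the FDR by edgeR and 3 had an unadjusted p under 0.05 in CLP versus sham, where the median was -0.07. The shares of all genes were 2.78% past the FDR and 28.6% at such an unadjusted p. DESeq2 called 4 of them there with the 8 mice compared and 1, Ppara, with all 12, beside the same 23.3% and 13% of all genes. Ppara, the fatty acid receptor, had the smallest p, at 287 to 413 CPM in sham and 130 to 238 in CLP (log2 fold change -0.83, adjusted p = 0.0869), and S1pr2, a receptor that conjugated bile acids activate, was at 4.92 to 6.95 CPM in sham and 5.85 to 14.5 in CLP (0.86, adjusted p = 0.125). The next genes were named for their place in the feedback loop after their values were seen. The factors that SHP acts through gave 0.05 for Hnf4a and -0.07 for Nr5a2, which encodes LRH-1, with adjusted p-values of 0.783 and 0.774. Fgf15, the intestinal hormone that represses Cyp7a1 through Fgfr4 and Klb in the liver, had 0 reads in every mouse, and Gpbar1 had at most 4. Fgfr4 gave 0.62 in CLP versus sham (adjusted p = 0.139), with overlapping mice, and was called higher by DESeq2 on the 8 mice compared, and Klb gave 0.10 (adjusted p = 0.702).

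The bile acid and sterol transporters held the only genes of these 3 lists past the FDR in the edgeR fit of 12 mice. All 11 tested of 13 listed had estimates below 0 in CLP versus sham, with a median of -0.77. The FDR called 2 of the 11, both lower, and 2.78% of all genes in either direction. Abcg8, a subunit of the canalicular cholesterol exporter, went from 75.3 to 106 CPM in sham to 51.5 to 58.5 in CLP (log2 fold change -0.65, SE 0.12, adjusted p = 0.0294), and Slco1a1, an organic anion uptake carrier, from 184 to 309 to 16.8 to 58.0 (-2.82, SE 0.63, adjusted p = 0.0444). In CLP+DCA these had 55.6 to 75.8 and 13.4 to 176 CPM, and their adjusted p-values against CLP were 0.668 and 0.437. The calls in CLP versus sham held in 15 of 22 other settings for Abcg8 and in 10 of 22 for Slco1a1, and leaving out CLP 2 gave adjusted p-values of 0.0996 and 0.127. The bile salt export pump gene Abcb11 and the uptake carrier gene Slc10a1, named for comparison after their values were seen, gave -1.06 and -0.86 in CLP with adjusted p-values of 0.190 and 0.310. DESeq2 called 6 transporters lower with the 8 mice compared, Abcb11 among them, and 3 with all 12 mice, Abcg8, Slco1a1 and Slco1a4, beside 23.3% and 13% of all genes. The basolateral exporter subunits Slc51a and Slc51b had at most 1 and 18 reads in a mouse and were not tested.

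**Figure D5:**
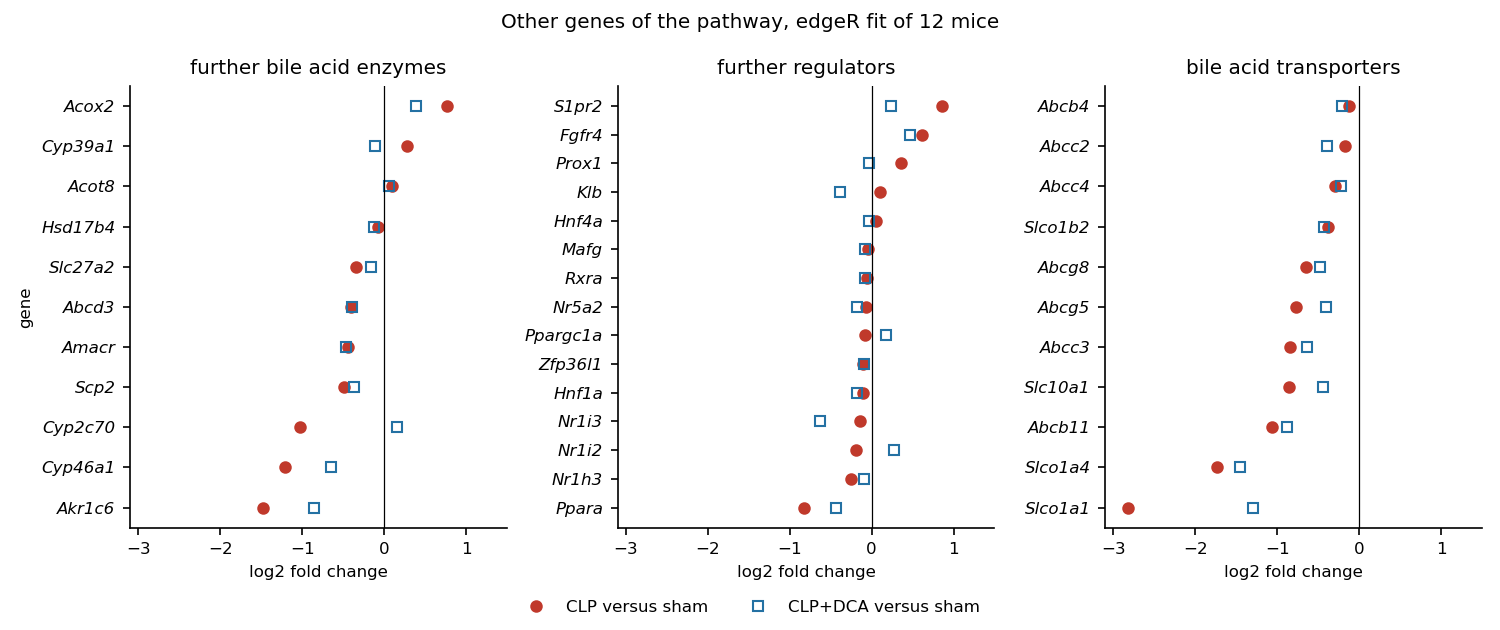
Log2 fold change (x axes) in CLP versus sham (filled red circles) and CLP+DCA versus sham (open blue squares) of the tested genes of 3 lists (y axes): 11 further enzymes, 15 further regulators and 11 transporters. All transporter points lie left of 0, while regulators cluster around it, and the 2 comparisons share the sham mice.

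Cyp7a1 has a strong daily rhythm in rodent liver, so 15 genes of the circadian clock and its output were read beside it. In CLP versus sham 0 passed the FDR by edgeR and 9 had an unadjusted p under 0.05, while DESeq2 called 7 with the 8 mice compared and 4 with all 12. Of all genes, 28.6% had such an unadjusted p and DESeq2 called 23.3% and 13%. The smallest edgeR p-values were those of Nr1d2, at -0.73 (adjusted p = 0.0527), and Clock, at 0.59 (adjusted p = 0.0576). Per1 rose in CLP+DCA versus sham, from 20.2 to 32.7 CPM to 43.1 to 57.6 (log2 fold change 1.09, SE 0.15, adjusted p = 0.0357). Against CLP its log2 fold change was 0.91 (adjusted p = 0.109), with every CLP+DCA mouse above every CLP mouse, and DESeq2 with 8 or 12 mice and voom called it. The call against sham held in 11 of 22 other settings, over which the adjusted p ran from 3.04e-07 to 0.166, and it was 0.164 without sham 3. The part of these genes in the values of Cyp7a1 was not tested.

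Markers of other cells were low beside those of hepatocytes. Of the 10 hepatocyte markers, 9 had estimates below 0 in CLP versus sham, with a median of -0.61, and 2 fell, Alb (-1.11, adjusted p = 0.0463) and Apoc3 (-0.81, adjusted p = 0.0366), so that the median of the 10 bile acid genes equalled that of the hepatocyte markers to 2 decimals. Of 8 neutrophil markers tested, 7 had estimates above 0. The other, Ly6g, at 6 to 30 reads in a mouse, gave -0.78 (adjusted p = 0.136 by edgeR) and was called lower by voom. Retnlg, at 7 to 136 reads in a mouse, rose (3.10, adjusted p = 0.0254). These 3 calls held in 11, 13 and 15 of 22 other settings for Alb, Apoc3 and Retnlg. The neutrophil list summed to 6.39 to 9.11 CPM in sham, 30.7 to 41.9 in CLP and 6.54 to 54.4 in CLP+DCA, with its granule genes Mpo and Camp at 0 reads in some mice. The cholangiocyte list summed to 34.7 to 44.2, 62.5 to 96.6 and 38.8 to 214 CPM in the same order, and the small intestine list, with 2 of its 6 genes above 1 CPM, to 68.7 to 97.3, 57.5 to 89.5 and 61.0 to 103 CPM. Most reads of the cholangiocyte list were of Spp1 (778 to 5149 in a mouse) and Sox9 (154 to 2620). No other gene of that list passed 155 reads in a mouse. In CLP versus sham all 6 tested cholangiocyte markers had estimates above 0, 3 with an unadjusted p under 0.05 and 0 past the FDR by edgeR, and DESeq2 on the 8 mice compared called 4 of them and 6 neutrophil markers higher. The Kupffer and macrophage list summed to 172 to 417 CPM over the 12 mice, the endothelial list to 119 to 188, the stellate list to 73.7 to 344 and the lymphocyte list to 0.538 to 4.56. In CLP versus sham these 4 lists had 1 of 10, 4 of 7, 3 of 7 and 3 of 4 tested genes at an unadjusted p under 0.05. They had 0 past the FDR by edgeR, and 1, 3, 3 and 2 called by DESeq2 on the 8 mice compared. Of all genes, 28.6% had such an unadjusted p, 2.78% passed the FDR by edgeR and 23.3% were called by this DESeq2 fit. The same shares apply to the hepatocyte, neutrophil and cholangiocyte counts above. The part of other cells in the members' values was not tested.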

How the data were processed

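Whole-liver RNA of 12 mice was sequenced. The authors prepared poly(A) libraries, aligned paired-end reads to mm10 with STAR 2.5, obtained reads per gene from featureCounts in Subread 1.5.0-p1 and tested genes with DESeq2. The deposited values are unnormalized read counts, so that deeper libraries give smaller counting error. The gene annotation and the strand setting are not given in the sources used here. No member overlaps another gene of the table.

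Samples were grouped by their labels. Counts were tested with edgeR 4.0.16 (R 4.3.3), with a filter at 10 counts (filterByExpr), TMM factors, a robust quasi-likelihood fit of all 12 mice and Benjamini-Hochberg adjustment over all genes tested, at an FDR of 0.05. Ratios were tested by exact permutation. Standard errors of fold changes were derived from the F statistic. Exon lengths came from GENCODE annotation on GRCm38 and start-site regions from RefSeq. Intervals from zero reads cover counting error only, since the libraries carry no molecular identifiers and duplicates of a molecule cannot be told from new ones. The scripts were tested on simulated data.

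The members and lists were chosen with earlier results of these data known. All members were named, and of each further list the genes past the FDR in any comparison and the 2 with the smallest p in CLP versus sham. Acute phase genes are given only as their share of reads. Of the marker lists, genes past the FDR are named, and a few others for their reads or direction. For likeness, the 3 genes with the highest correlation of deviations from group means were taken for Cyp7a1, Cyp8b1 and Nr0b2, of which 1 is not reported here. Lists of further enzymes, further regulators, transporters, clock genes, acute phase genes and markers of hepatocytes, cholangiocytes, neutrophils, Kupffer cells and macrophages, lymphocytes, endothelium, stellate cells and small intestine were read. Alternatives were DESeq2 1.42.0, limma 3.58.1 voom with sample weights, other scalings and filters, a replicate block and leaving out each mouse. The labels do not say whether mice shared a cage or surgery day.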

Additional observations from a re-analysis of the deposited data

Results flagged for a closer look

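In groups of 4 mice, a sample was singled out when its gap to the nearest other mouse, divided by the group's range, passed Dixon's 95% critical value for 4 samples. Chance does so in about 1 in 20 groups, and 42 were tested. The rule was met by 3 values, all in CLP+DCA 3 and all low: Cyp27a1 at a log2 CPM of 6.96 (125 CPM, gap over range 0.982), Hsd3b7 at 7.66 (202 CPM, 0.888) and Nr1h4 at 6.11 (68.9 CPM, 0.889). The other 3 CLP+DCA mice were close together for these genes, at 366 to 373, 401 to 438 and 112 to 119 CPM. Acute phase genes took 33.4% of the reads of CLP+DCA 3, against 13.96% to 18.7% in the other CLP+DCA mice, and the part of that in the 3 values was not tested.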

How the results depend on the processing

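The count of members called in CLP versus sham was 0 in the 12-mouse edgeR fit. It was 2 with DESeq2 on the 8 mice compared, 1 with DESeq2 on all 12 mice, 2 with edgeR on the 8 mice compared, 3 with voom and sample quality weights, and 0 to 2 when a mouse was left out, the 2 without CLP+DCA 3. It was 0 in the other settings, and 0 in every setting for the other comparisons. The DESeq2 fits called 23.3% (8 mice) and 13% (12 mice) of all genes there, the 8-mouse edgeR fit 18.3%, voom 26.2% and the fit without CLP+DCA 3 23.8%, against 2.78%. Calls over the whole table in CLP versus sham ran from 10 without sham 3 to 3453 with voom, against 367. Scaling by library size alone moved the median of all genes to -0.16, -0.05 and 0.12 for CLP against sham, CLP+DCA against sham and CLP+DCA against CLP.

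Signs changed for estimates near 0. Leaving out each mouse, Cyp7b1 ran from -0.42 to 0.20 in CLP versus sham, -0.47 to 0.17 in CLP+DCA versus sham and -0.44 to 0.36 in CLP+DCA versus CLP, where library size alone gave 0.11. Nr1h4 in CLP versus sham ran from -0.092 to 0.033. In CLP+DCA versus CLP, Cyp8b1 ran from -0.34 to 0.79, Baat from -0.010 to 0.12, and Hsd3b7 from -0.25 to 0.054, with 0.069 by voom. The log2 ratio of Nr0b2 to Nr1h4 in CLP versus sham ran from -0.61 to 0.017. Of the members' other fold changes, 290 outside the left-out mice and 339 within them kept their sign and side of the threshold. The ratio of Nr0b2 to Nr1h4 in CLP+DCA versus CLP had an unadjusted exact permutation p of 0.0286 without CLP+DCA 3. This is the smallest p that 3 against 4 mice allow. CLP+DCA 3 was the only CLP+DCA mouse inside the CLP range, so leaving it out fixed this p, and nothing is drawn from it.

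With a replicate block, 0 members were called in CLP versus sham, and 46 genes in all. Same-numbered mice had correlations of deviations from -0.46 to 0.55, with 1 of 12 pairs over 0.1, so the numbers were not taken to pair the mice. The 4 mice per group and the spread among septic mice limit what can be seen. The cause of these changes was not tested.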
